A study of Mus musculus with 4 samples.

Results

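Tbx21, Eomes, Prdm1, Id2, Id3, Batf, Irf4, Nr4a1, Nr4a2 and Nr4a3 encode transcription factors that shape effector T cells and natural killer (NK) cells. These 10 genes were taken by symbol from the 27998 genes of the deposited count matrix and read in T and NK cells gated on other marker genes, so no member was used to choose a cell. The gates held 3741 of the 10943 cells that passed the filters. Single-cell 3' RNA sequencing (10x Genomics) had been done on live CD45+ immune cells sorted from subcutaneous tumours of B16F10-OVA, a mouse melanoma line that carries ovalbumin as a model antigen. The hosts were C57BL/6 wild-type mice and mice with a T cell conditional knockout of miR-155 (called knockout here), with 1000000 melanoma cells injected into each and more than 4 mice per group. Tumours were taken at day 9 or day 12 and pooled within a group, which left 1 library per genotype and day. The Cre driver, the deleted stretch and the age of the mice are not given in the sources used here, and all 4 groups carried the same tumour. Values for the 4 libraries are given throughout in the order wild-type day 9, knockout day 9, wild-type day 12, knockout day 12, called the library order.

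T-bet (encoded by Tbx21) and Eomes are T-box factors that drive cytotoxic and interferon-gamma programmes in CD8 T cells and NK cells. Id2 and Id3 bind E proteins and keep them off DNA; Id2 is associated with effector cells and innate lymphocytes, Id3 with naive and memory-forming cells. Batf and Irf4 act together downstream of the T cell receptor, Blimp-1 (encoded by Prdm1) is a transcriptional repressor that promotes terminal effector differentiation, and the Nr4a orphan nuclear receptors are induced within hours of receptor signalling and stay high in chronically stimulated T cells.

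The deleted microRNA pairs with messages through its seed, and its mature strand is shown because the genotype is defined by it. In RefSeq (GRCm38.p6) mmu-miR-155-5p lies on the plus strand of chromosome 16 at chr16:84714143-84714165. Capitals mark the seed, bases 2 to 8, in the microRNA and the letters complementary to it, AGCATTA, in the messages. Annotated 3' UTRs (longest of each gene, GENCODE vM21) held this match in 2 of the 10 members (20%) and in 1742 of 21025 genes (8.29%). Both matches follow.
mmu-miR-155-5p: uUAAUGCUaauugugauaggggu
Eomes 3' UTR: AGCATTAttttaacctt
Nr4a3 3' UTR: gcagaggacaAGCATTAatgcaggtga
The Eomes match began at base 1 of a 1120-base UTR, and the Nr4a3 match began at base 2836 of a 3095-base UTR. An A opposite base 1 of the microRNA was present beside the Nr4a3 match and not beside the Eomes match. The other 8 members had no such match, Id2 and Batf among them. A match describes letters and shows no binding.

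The libraries held 18783490 to 33902064 UMIs in 1778 to 3749 barcodes, and any pair of libraries shared 4 to 16 barcodes. T cells (at least 3 UMIs of the CD3 genes) numbered 947, 855, 579 and 254 and NK cells 179, 237, 423 and 261 in the library order. T cells made up 54.1%, 23.6%, 16.2% and 12.7% of the cells kept. CD8 T cells numbered 649, 367, 220 and 57, with median depths of 11675, 4944, 4449.5 and 4166 UMIs per cell. Of those, 289, 14, 37 and 3 expressed cell cycle genes and 54, 233, 43 and 34 were naive-like, so the make-up of the CD8 gate differed between libraries together with genotype and day. Levels are UMIs per 1000000 UMIs of the gate (CPM), with exact 95% intervals that cover counting error only. They are compared within a gene and not between genes. A list of 5 T cell genes not used by the gates (Cd2, Cd5, Lat, Bcl11b, Cd28) summed to 1016 to 1460 CPM in CD8 T cells and 7.07 to 17.5 CPM in macrophage-like cells. A list of 4 macrophage genes (Lyz2, Apoe, Cd68, Adgre1) summed to 82.3, 262, 363 and 611 CPM in CD8 T cells and 92.4, 386, 433 and 568 CPM in NK cells, so this background signal was lowest in wild-type day 9; its part in the results was not tested beyond leaving out cells with 5 or more Lyz2 UMIs.

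Mir155hg, the host gene of miR-155 (chr16:84703167-84715245, plus strand, mm10), was read first as a check of the labels. Its level in CD8 T cells was 8.70, 0, 10.9 and 0 CPM, from 79, 0, 14 and 0 UMIs. The count of 0 in 367 knockout cells at day 9 allows up to 1.61 CPM, and the 0 in 57 cells at day 12 up to 12.7 CPM, which is above the wild-type level and so checks nothing in these cells at that day. In non-CD8 T cells it was 4.48, 0.681, 4.58 and 0 CPM. NK cells had the transcript in all libraries, at 4.09, 3.35, 4.94 and 6.76 CPM. The transcript was low or undetected in the T cells of the libraries labelled knockout and present in their NK cells. A 3' tag need not lie in the deleted stretch, so the check is limited.

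Each member had its own order of T and NK subsets. The highest mean levels fell in Ly49-negative NK cells for Tbx21 and Id2, in Ly49-positive NK cells for Eomes, in regulatory T cells for Prdm1 and Batf, in CD8 T cells outside the named subsets for Id3, in PD-1+ CD8 T cells for the 3 Nr4a genes, and in conventional CD4 T cells for Irf4. The leading subset was the same for 4 of 10 members when cells were gated again at 2000 UMIs each (Tbx21, Eomes, Id2, Irf4), and for 4 of 10 when subsets were ranked by the share of cells with a UMI at that depth (Tbx21, Eomes, Prdm1, Batf). Tbx21 and Eomes kept theirs under both. Without knockout day 9 the leader was the same for 5 members only. Regulatory T cells then led for Nr4a1 (45.9 CPM, PD-1+ cells 22.2) and Irf4 (13.98 CPM, conventional CD4 T cells 5.91), cycling CD8 T cells for Nr4a3 (14.98 CPM, PD-1+ cells 9.33), Ccl1/Penk/Nrn1 CD8 T cells for Nr4a2 (104 CPM, PD-1+ cells 60.2) and Ikzf2+ T cells for Id3 (90.5 CPM, remaining CD8 T cells 86.2). Without knockout day 12 the Ikzf2+ T cells led for Id3 (102 CPM, remaining CD8 T cells 100.3). Without wild-type day 12 the Gzmk+ PD-1- CD8 T cells led for Id2 (1617 CPM, Ly49-negative NK cells 1516). That lead and the Nr4a2 lead of Ccl1/Penk/Nrn1 cells each rest on 1 library, wild-type day 9. The values beside them are means over more libraries.

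**Figure D1:**
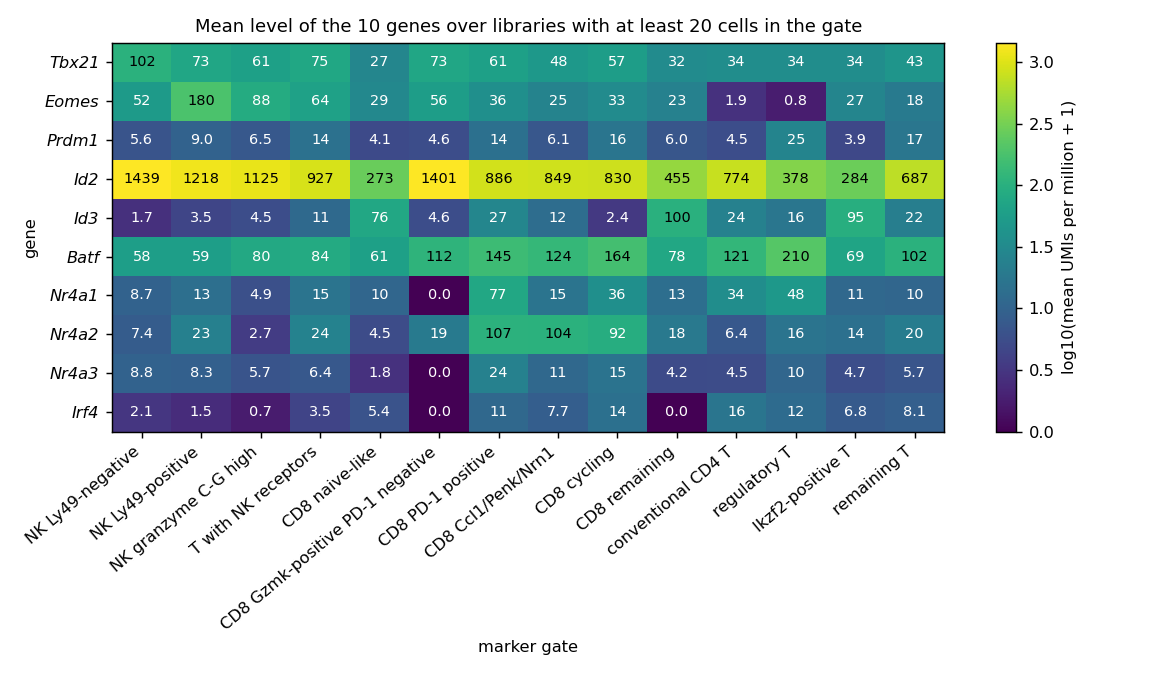
Mean level of each member (rows) in each T and NK subset (columns), in CPM, averaged over the libraries with at least 20 cells of the subset; colour is log10 of mean CPM + 1 and the number in each cell is the mean CPM. Eomes is lowest in conventional CD4 and regulatory T cells (1.86 and 0.812 CPM), and the 3 subsets highest in Id3 are among the 4 lowest in Id2.

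Tbx21 (chr11:97098071-97115331, minus strand) is the gene of T-bet. In NK cells its level was 76.9, 77.9, 70.9 and 70.5 CPM in the library order. The 4 NK pools lay close together with overlapping intervals, both day 9 values being slightly above both day 12 values. At day 9 the knockout NK level was 1.01 times the wild-type (95% interval 0.753 to 1.36) and at day 12 it was 0.994 times (0.78 to 1.26). In CD8 T cells it was 53.0, 34.4, 56.0 and 24.0 CPM. Both knockout libraries were below both wild-type libraries. The knockout level was 0.65 of the wild-type at day 9 (0.505 to 0.826) and 0.43 at day 12 (0.167 to 0.931, from 7 knockout UMIs). Within PD-1+ CD8 T cells at day 9 the Tbx21 level was 58.1 CPM in wild-type and 62.0 CPM in knockout, a ratio of 1.07 (0.551 to 1.9). Within naive-like CD8 T cells it was 48.2, 26.3, 34.3 and 0 CPM, with a day 9 ratio of 0.546 (0.298 to 1.04). Thinned to 2000 UMIs per cell, 11.4%, 6.54%, 12.3% and 7.02% of CD8 T cells had a Tbx21 UMI, against 45.9%, 16.3%, 25.0% and 8.77% unthinned. In macrophage-like cells, which should lack T-bet and had median depths of 8990.5 to 10402 UMIs, the unthinned share was 0.139% to 1.97%.

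Across subsets, the mean Tbx21 level was 102 CPM in Ly49-negative NK cells (84.9 to 119 over the libraries). T cells with NK receptors followed at 74.7 CPM (62.1 to 89.5), then Gzmk+ PD-1- CD8 T cells (46.5 and 99.8 CPM in the 2 wild-type libraries) and Ly49-positive NK cells at 73.1 CPM (62.7 to 81.0), and these neighbours overlapped. Regulatory T cells had 71.2 CPM in wild-type day 9 but 19.5, 12.8 and 12.8 CPM in the other libraries. The single high pool held 23 cells; at day 9 the knockout level was 0.274 of it (0.0983 to 0.712).

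Eomes (chr9:118478212-118486132, plus strand), the T-box relative of T-bet, was the member most restricted to NK cells. Ly49-positive NK cells, the more mature NK cells that carry Ly49 receptors, had 180.4, 205.5, 185.9 and 149 CPM. Ly49-negative NK cells had 16.98, 83.8, 68.1 and 38.3 CPM. In each library the Ly49-positive pool was above the Ly49-negative pool. The ratio was 10.6 (4.07 to 39.5), 2.45 (1.37 to 4.83), 2.73 (1.65 to 4.84) and 3.89 (1.84 to 9.87) in the library order, and every interval lay above 1. Tbx21 did not share this order, with 81.0, 76.9, 71.5 and 62.7 CPM in Ly49-positive and 84.9, 119, 111 and 93.1 CPM in Ly49-negative NK cells.

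Conventional CD4 T cells had Eomes at 0, 5.58, 0 and 0 CPM and regulatory T cells at 0, 2.44, 0 and 0 CPM. Macrophage-like cells had 0 to 0.712 CPM, and 0% to 0.665% of them had a UMI, against 45.2% to 53.6% of NK cells (median depths 3745 to 5493 UMIs). The upper limits were 14.5 to 36.7 CPM for the conventional CD4 pools and 13.6 to 23.6 CPM for the regulatory T cell pools, so low levels in the CD4+ subsets are not excluded at this depth.

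In all NK cells Eomes was 143, 168, 160.2 and 104 CPM. The knockout library at day 12 was the lowest and the other 3 lay together. The knockout level at day 12 was 0.647 of the wild-type (0.539 to 0.776), while at day 9 it was 1.18 times (0.956 to 1.45). The make-up of the gate moved with this: NK cells with at least 10 UMIs of granzymes C to G numbered 10, 17, 33 and 50. Those granzyme C-G high cells had Eomes at 117, 55.8, 117 and 58.5 CPM, and Tbx21 at 27.0, 50.2, 46.7 and 75.0 CPM. At day 12 the knockout to wild-type ratio in them was 0.501 for Eomes (0.321 to 0.777) and 1.61 for Tbx21 (0.939 to 2.85). In Ly49-positive cells the Eomes ratio was 0.803 (0.651 to 0.987), so the day 12 difference was present in both subsets.

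**Figure D2:**
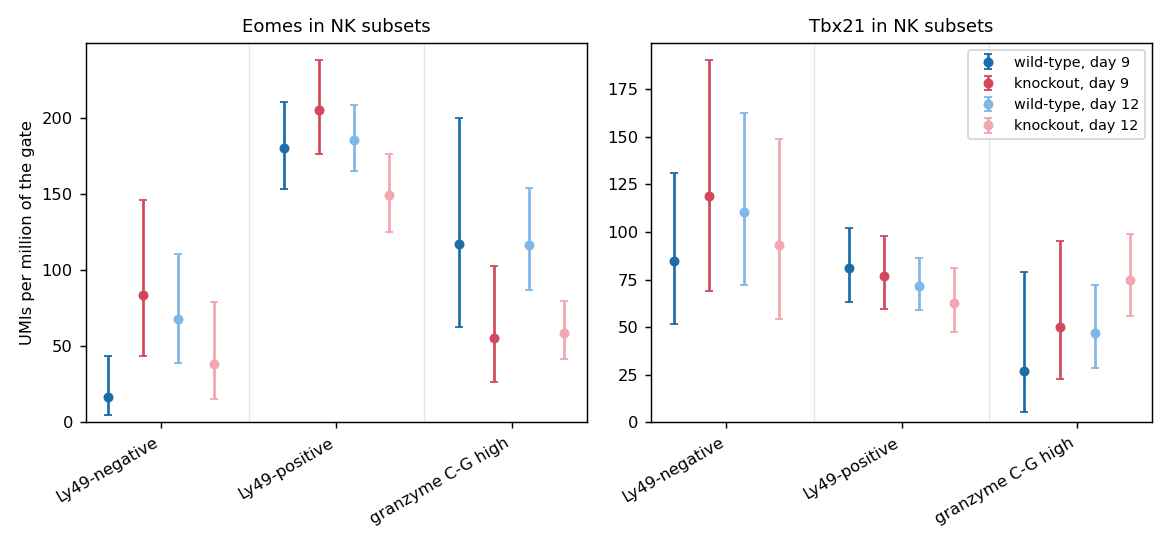
Eomes (left) and Tbx21 (right) in Ly49-negative, Ly49-positive and granzyme C-G high NK cells, in CPM by library with exact 95% Poisson intervals. Eomes is above its Ly49-negative level in the Ly49-positive cells of all 4 libraries, and in the granzyme C-G high cells both knockout points (55.8 and 58.5 CPM) lie below both wild-type points (117 CPM).

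CD8 T cells had Eomes at 33.5, 22.7, 40.4 and 10.3 CPM. Both knockout libraries were again the lower ones, and the knockout value at day 12 rests on 3 UMIs. The ratio was 0.677 (0.494 to 0.91) at day 9 and 0.255 (0.0509 to 0.787) at day 12. PD-1+ CD8 T cells at day 9 had 50.3 CPM in wild-type and 0 UMIs in the 29 knockout cells; against a floor of 3 counts the knockout level was lower than 0.285 of the wild-type. T cells with NK receptors had 73.2, 28.3, 89.5 and 64.3 CPM, with a day 9 ratio of 0.387 (0.194 to 0.707).

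Prdm1 (chr10:44437177-44528501, minus strand), the gene of Blimp-1, was sparse. The CD8 T cell level was 21.5, 2.62, 7.0 and 17.2 CPM. Wild-type day 9 was high and knockout day 9 low, and the knockout value at day 12 came from 5 UMIs, 3 of them in 1 cell. The day 9 ratio was 0.122 (0.0441 to 0.27). Within wild-type the level at day 12 was 0.326 of that at day 9 (0.147 to 0.631). Cycling cells held 69.2% of the wild-type day 9 Prdm1 UMIs in the gate, and 5851469 of its 9076244 UMIs of all genes. Their level was 23.1 CPM, beside 25.9 CPM in PD-1+ cells. The 14 knockout cycling cells at day 9 had no Prdm1 UMI, which allows up to 14.6 CPM. Regulatory T cells, in which Blimp-1 is a known effector marker, had 27.4, 31.7, 17.0 and 12.8 CPM, and macrophage-like cells had 11.6, 11.0, 5.15 and 4.07 CPM. NK cells lay at 12.3, 5.87, 7.63 and 7.89 CPM, which overlaps the macrophage-like range.

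Id2 (chr12:25093799-25097140, minus strand), the E protein inhibitor of effector and innate lymphocytes, differed by genotype in CD8 T cells with the most UMIs behind it of any member. The level was 901, 213, 766 and 337 CPM, from 8175, 489, 985 and 98 UMIs. Both wild-type libraries were above both knockout libraries with no overlap of the intervals. The knockout level was 0.237 of the wild-type at day 9 (0.216 to 0.259) and 0.44 at day 12 (0.353 to 0.541). At 2000 UMIs per cell, 71.6%, 22.9%, 58.6% and 29.8% of CD8 T cells had an Id2 UMI (92.9%, 41.4%, 70.0% and 43.9% unthinned). Macrophage-like cells transcribe Id2 themselves and had 162, 326, 204 and 298 CPM, so they give no background share for it.

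At day 9 the lower Id2 level was also present inside CD8 subsets. PD-1+ cells had 1184, 472 and 1001 CPM in wild-type day 9, knockout day 9 and wild-type day 12; the knockout library at day 12 had only 3 such cells. Naive-like cells had 227, 132, 514 and 220 CPM in the library order. The remaining CD8 T cells had 692, 194, 478 and 538 CPM. The knockout to wild-type ratio at day 9 was 0.399 in PD-1+ cells (0.323 to 0.488), 0.58 in naive-like cells (0.443 to 0.765) and 0.28 in the remaining cells (0.206 to 0.379). Each was closer to 1 than the 0.237 of the whole gate. At day 12 the ratio was 0.427 in naive-like cells (0.287 to 0.625), while in the remaining cells the knockout value was not the lower one. CD8 subsets with at least 20 cells in both libraries were also given the same weight. At day 9 these were the naive-like, PD-1+ and remaining cells, and at day 12 the naive-like cells only. Cycling cells were thus left out at both days. The log2 ratio so weighted was -1.40 at day 9 and -1.23 at day 12, against -2.08 and -1.18 for the gate as a whole. Of the Id2 UMIs in wild-type CD8 T cells at day 9, 60.6% came from cycling cells, and 35.8% of those in knockout CD8 T cells came from naive-like cells. Those subsets held 5851469 of 9076244 and 1330189 of 2294466 of all UMIs of their gates, so both Id2 shares were below the subset's share of UMIs. In knockout naive-like cells at day 9, 43 of the 175 UMIs lay in 1 cell.

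The NK gate as a whole showed no such difference. Its Id2 level was 1420, 1326, 1168 and 1123 CPM. The ratio of knockout to wild-type was 0.934 at day 9 (0.872 to 1.00) and 0.961 at day 12 (0.906 to 1.02). Within it, Ly49-negative NK cells were lower in knockout at day 9, with 1362.4 CPM against 1871.5 CPM in wild-type. Their ratio was 0.728 at day 9 (0.612 to 0.864) and 1.09 at day 12 (0.911 to 1.29). In Ly49-positive NK cells the ratio was 0.985 at day 9 (0.906 to 1.07) and 0.955 at day 12 (0.884 to 1.03). Regulatory T cells were also level at day 9, with 373 and 378 CPM and a ratio of 1.01 (0.757 to 1.37). T cells that expressed Ikzf2 (Helios) without CD4 or CD8 had 228, 194, 310 and 403 CPM, and their day 12 ratio was 1.3 (0.995 to 1.7). Conventional CD4 T cells had 831 and 463 CPM at day 9, a ratio of 0.557 (0.452 to 0.686). Taking all non-CD8 T cells, Id2 was 883, 355, 709 and 641 CPM, so the knockout value was low at day 9 (ratio 0.402, 0.374 to 0.432) and near the wild-type at day 12 (0.904, 0.82 to 0.995). The make-up of this gate differed too. The Ikzf2+ T cells, which were low in Id2, were 54 of 298, 199 of 488, 109 of 359 and 66 of 197 of its cells. The part of make-up in the ratios was not tested.

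Id3 (chr4:136143497-136145755, plus strand), the relative of Id2 linked to naive and memory-forming T cells, had a different pattern. In CD8 T cells it was 8.04, 64.1, 39.6 and 44.6 CPM. Wild-type day 9 stood apart below the other 3 libraries. The knockout level was 7.97 times the wild-type at day 9 (5.98 to 10.7) but 1.13 times at day 12 (0.562 to 2.1), and in wild-type it was 4.93 times higher at day 12 than at day 9 (3.38 to 7.14). Naive-like cells themselves had 102, 67.7, 83.2 and 52.0 CPM, with a knockout to wild-type ratio of 0.663 at day 9 (0.446 to 1.00). Among the other CD8 subsets at day 9 the direction varied, on few UMIs. Cycling cells had 0.342 CPM in wild-type and 19.8 CPM in knockout, from 2 and 5 UMIs. PD-1+ cells had 4.67 and 28.6 CPM, from 9 and 6 UMIs. In both knockout pools 4 of the UMIs lay in 1 cell. The remaining cells had a ratio of 1.40 (0.784 to 2.60). Knockout was the lower in Ccl1/Penk/Nrn1 cells (12.3 and 9.25 CPM, from 8 and 1 UMIs) and in Gzmk+ PD-1- cells (9.29 and 0 CPM, from 1 and 0 UMIs). T cells with NK receptors had a ratio of 5.19 (1.99 to 14.4) and all non-CD8 T cells 3.19 (2.31 to 4.47). The 7.97-fold difference of the gate was not present within the naive-like cells. With equal weight of the naive-like, PD-1+ and remaining cells only, the log2 ratio at day 9 was 0.18.

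The Ikzf2+ T cells had Id3 at 90.3, 107, 109 and 71.9 CPM and the remaining CD8 T cells at 91.9, 128, 80.5 and 63.4 CPM. These subsets and naive-like CD8 T cells held the top of the order with overlapping ranges, and NK cells were at 0.449 to 5.07 CPM. Over 43 pools of 1 subset and 1 library, log2(CPM + 1) of Id2 and Id3 had a Pearson correlation of -0.74; pools of a library share its depth, and the value is a description. In single CD8 T cells of wild-type day 9, 582 had only Id2 UMIs, 18 only Id3, 21 both and 28 neither. In knockout day 9 the counts were 130, 48, 22 and 167.

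**Figure D3:**
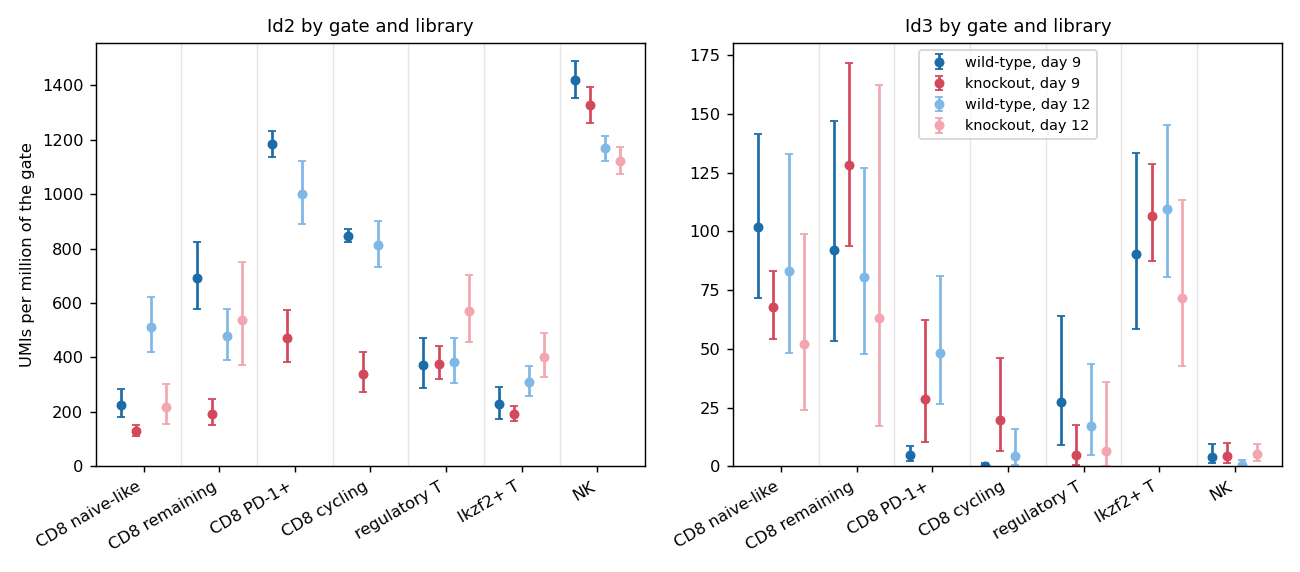
Id2 (left) and Id3 (right) in CPM by library, with exact 95% Poisson intervals, in 4 CD8 subsets, regulatory T cells, Ikzf2+ T cells and NK cells, for libraries with at least 10 cells of the subset. Id2 is lower in knockout than in wild-type at day 9 within each CD8 subset drawn and nearly level in the whole NK gate. Id3 is high in naive-like, remaining CD8 and Ikzf2+ T cells.

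Batf (chr12:85686669-85709087, plus strand), an AP-1 family factor induced by T cell receptor signalling, was also lower in knockout CD8 T cells. The level was 140.4, 68.0, 143 and 54.9 CPM. The 2 wild-type libraries were nearly equal and both knockout libraries lay below them. The ratio was 0.484 at day 9 (0.408 to 0.572) and 0.384 at day 12 (0.215 to 0.641). PD-1+ cells had 164 and 81.1 CPM at day 9, a ratio of 0.495 (0.285 to 0.805), and naive-like cells had 62.4 CPM in both, a ratio of 1.00 (0.619 to 1.68). Regulatory T cells had the highest mean, with 208, 205, 217 and 141 CPM and a day 9 ratio of 0.983 (0.662 to 1.48). They exceeded conventional CD4 T cells in the first 3 libraries, by 1.76 (1.06 to 2.94), 1.44 (1.00 to 2.08) and 2.09 times (1.28 to 3.49). In knockout day 12, with 19 and 18 cells, the order was the other way, 141 CPM in regulatory and 189 CPM in conventional CD4 T cells. In the whole NK gate Batf was 69.5, 67.0, 59.2 and 58.6 CPM, with ratios of 0.964 and 0.99 at the 2 days. Its subsets differed. Ly49-negative NK cells at day 9 had 106.1 CPM in wild-type and 20.96 CPM in knockout, from 25 and 3 UMIs. Their ratio was 0.198 at day 9 (0.0382 to 0.647) and 0.562 at day 12 (0.196 to 1.44). In Ly49-positive NK cells the ratio was 1.22 at day 9 (0.831 to 1.79) and 1.06 at day 12 (0.728 to 1.54). Macrophage-like cells lay at 36.4 to 62.1 CPM.

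Irf4 (chr13:30749226-30766976, plus strand), the partner of Batf at composite DNA sites, was near the limit of detection. CD8 T cells had 10.2, 6.97, 9.33 and 3.43 CPM and NK cells 3.27, 0, 0.449 and 2.26 CPM. The libraries overlapped, and the day 9 ratio in CD8 T cells was 0.681 (0.374 to 1.16). The highest pool, conventional CD4 T cells of knockout day 9 at 36.3 CPM, had 11 of its 13 UMIs in 1 cell. Dendritic-like cells had 9.02 to 22.7 CPM.

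The Nr4a genes are printed with their promoters because the CPM of all 3 was higher in knockout than in wild-type PD-1+ CD8 T cells at day 9. Nr4a1 (Nur77) lies at chr15:101254269-101274795 on the plus strand, Nr4a2 (Nurr1) at chr2:57106830-57124003 on the minus strand and Nr4a3 (Nor1) at chr4:48045153-48086447 on the plus strand. The sequences are the 300 bases from 250 before to 50 after the RefSeq start (GRCm38.p6), 5' to 3' on the gene's strand, at chr15:101266596-101266895, chr2:57123954-57124253 and chr4:48045055-48045354. Capitals mark TGACG on either strand (CGTCA on the other), the core of a cAMP response element; this motif was chosen after the letters were seen.
Nr4a1: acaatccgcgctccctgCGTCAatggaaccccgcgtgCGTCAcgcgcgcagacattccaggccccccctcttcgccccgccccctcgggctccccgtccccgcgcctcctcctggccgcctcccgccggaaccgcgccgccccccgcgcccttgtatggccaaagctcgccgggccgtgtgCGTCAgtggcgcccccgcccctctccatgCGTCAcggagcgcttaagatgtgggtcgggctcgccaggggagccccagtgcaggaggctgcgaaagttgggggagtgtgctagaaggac
Nr4a2: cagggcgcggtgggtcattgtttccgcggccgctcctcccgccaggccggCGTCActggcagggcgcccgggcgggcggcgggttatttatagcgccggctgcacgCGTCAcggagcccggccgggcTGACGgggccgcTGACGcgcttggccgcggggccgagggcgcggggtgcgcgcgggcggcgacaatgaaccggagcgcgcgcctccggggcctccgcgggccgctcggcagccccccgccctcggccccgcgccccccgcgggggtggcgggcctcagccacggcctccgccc
Nr4a3: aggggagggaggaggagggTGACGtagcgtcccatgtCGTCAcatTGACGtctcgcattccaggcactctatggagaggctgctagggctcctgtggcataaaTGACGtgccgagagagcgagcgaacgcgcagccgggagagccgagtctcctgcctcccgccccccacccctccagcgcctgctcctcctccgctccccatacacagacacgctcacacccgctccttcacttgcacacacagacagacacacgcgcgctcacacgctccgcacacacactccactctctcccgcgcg
Each of the 3 promoters held 4 matches. A single match each was present in Prdm1, Id3 and Batf and none in Tbx21, Eomes, Id2 and Irf4. Of 32851 RefSeq promoters of this length, 20.8% held at least 1 match and 1.03% held at least 3. The full element TGACGTCA was in no member (1.79% of all promoters), nor was the NR4A site AAAGGTCA (1.51%), the T-box site TCACACCT (1.28%) or the serum response CArG box (1.63%). The AP-1 site TGANTCA was in Prdm1 (7.81%). The motifs can overlap: TGACG lies inside the full element. No binding was measured here.

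Nr4a1 in CD8 T cells was 16.7, 47.9, 27.2 and 34.3 CPM. Knockout day 9 was the highest and wild-type day 9 the lowest, and at day 12 the intervals overlapped. The ratio was 2.86 at day 9 (2.22 to 3.68) and 1.26 at day 12 (0.557 to 2.6). In PD-1+ cells at day 9 the level was 9.86 CPM in wild-type and 186 CPM in knockout, a ratio of 18.9 (10.7 to 34.6). Those 29 knockout cells held 39 UMIs, 19 of them in 1 cell; without that cell the level was 100.4 CPM. Thinned to 2000 UMIs, 1.48% of wild-type and 13.8% of knockout PD-1+ cells had a UMI (3.94% and 31.0% unthinned, median depths 8924 and 5590), against 6.4% and 8.3% of macrophage-like cells, which transcribe Nr4a1. Regulatory T cells had 49.3, 51.2, 42.5 and 38.5 CPM, close together, with a day 9 ratio of 1.04. NK cells had 4.91, 15.1, 11.7 and 14.1 CPM.

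Nr4a2 in CD8 T cells was 76.9, 47.5, 56.0 and 6.87 CPM, and the knockout value at day 12 came from 2 UMIs in 1 cell. Wild-type libraries were above knockout libraries. The ratio was 0.618 at day 9 (0.5 to 0.757) and 0.123 at day 12 (0.0146 to 0.46). Inside the PD-1+ subset the direction at day 9 was the opposite, with 82.5 CPM in wild-type and 200.4 CPM in knockout, a ratio of 2.43 (1.69 to 3.43); without the cell that held 15 of the 42 UMIs the knockout level was 136 CPM. With equal weight of the naive-like, PD-1+ and remaining cells only, the log2 ratio at day 9 was 1.12, against -0.70 for the whole gate. The PD-1+ cells had the highest knockout level of these subsets, and the remaining cells had 28.5 CPM. Naive-like CD8 T cells had 8.51, 4.51, 4.89 and 0 CPM and made up most of the knockout gate. Ly49-positive NK cells at day 12 had 17.9 CPM in wild-type and 36.8 CPM in knockout, a ratio of 2.06 (1.21 to 3.52).

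Nr4a3 in CD8 T cells was 6.61, 14.8, 11.7 and 0 CPM. Knockout day 9 was the highest, and knockout day 12 had no UMI in 57 cells. The day 9 ratio was 2.24 (1.43 to 3.47). In PD-1+ cells at day 9 it was 8.30 CPM in wild-type and 52.5 CPM in knockout, a ratio of 6.32 (2.65 to 14.5), and 26.1 CPM in knockout without the cell with 6 of its 11 UMIs. Of the 29 knockout PD-1+ cells, 8 had both Nr4a1 and Nr4a2 UMIs, 1 only Nr4a1, 2 only Nr4a2 and 18 neither. Of 203 such wild-type cells, 6 had both, 2 only Nr4a1 and 70 only Nr4a2.

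Genes induced by cell stimulation and by tissue handling moved alongside. A list of 13 immediate early genes, Fos and Jun among them, summed to 737 CPM in wild-type and 1241 CPM in knockout PD-1+ cells at day 9, and to 649, 1540, 1027 and 1971 CPM in CD8 T cells in the library order. Tnfrsf9, Xcl1, Rgs16 and Crtam, which follow receptor stimulation, summed to 610 CPM in wild-type and 3054 CPM in knockout PD-1+ cells at day 9. The exhaustion-linked genes Havcr2, Lag3, Tox, Tigit and Entpd1 summed to 1033 and 329 CPM in the same cells, and the macrophage genes to 90.8 and 329 CPM. Their part in the Nr4a values was not tested.

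**Figure D4:**
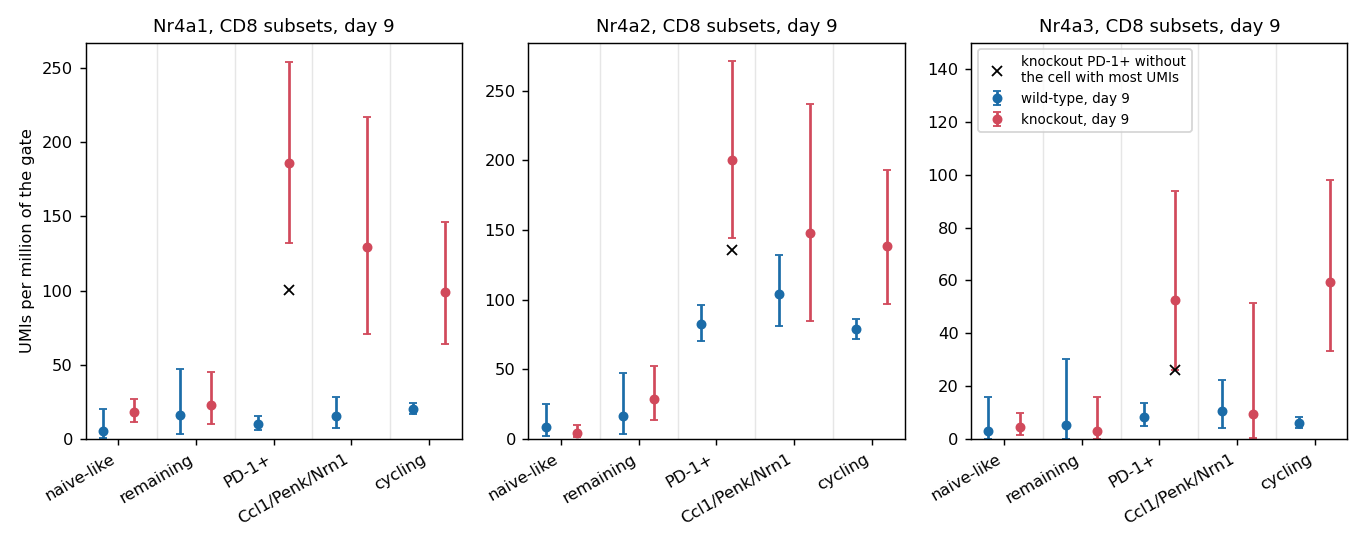
Nr4a1, Nr4a2 and Nr4a3 in CD8 subsets at day 9, in CPM with exact 95% Poisson intervals, for subsets with at least 8 cells; the black cross is the knockout PD-1+ level without the cell with the most UMIs. In PD-1+ cells the knockout CPM is above the wild-type for all 3 genes. This holds also without that cell (100.4 against 9.86, 136 against 82.5 and 26.1 against 8.30 CPM). The share of PD-1+ cells with a UMI, not drawn, was higher in knockout for Nr4a1 and Nr4a3 but not for Nr4a2 (34.5% against 37.4%).

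At 1 day, members at least 1.5-fold apart were counted among those with 20 UMIs over the pair. At day 9 in CD8 T cells, 3 of 10 were higher in knockout (Id3, Nr4a1, Nr4a3) and 5 lower (Tbx21, Prdm1, Id2, Batf, Nr4a2); over all genes 14.0% were higher and 23.0% lower. At day 12, 0 of 7 were higher and 5 lower (Tbx21, Eomes, Id2, Batf, Nr4a2), beside 13.6% and 23.0% of all genes. In NK cells at day 9, Nr4a1 was higher and Prdm1 and Nr4a3 lower of 8 members, beside 8.28% and 12.6% of all genes. At day 12 Nr4a3 was higher and Eomes lower of 8, beside 7.87% and 6.1%. CD8 T cells thus had 8 and 5 members past this fold, NK cells 3 and 2. The all-gene median log2 ratio was -0.12 and -0.11 in CD8 T cells and -0.01 in NK cells at day 9. No test is possible within 1 day.

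**Figure D5:**
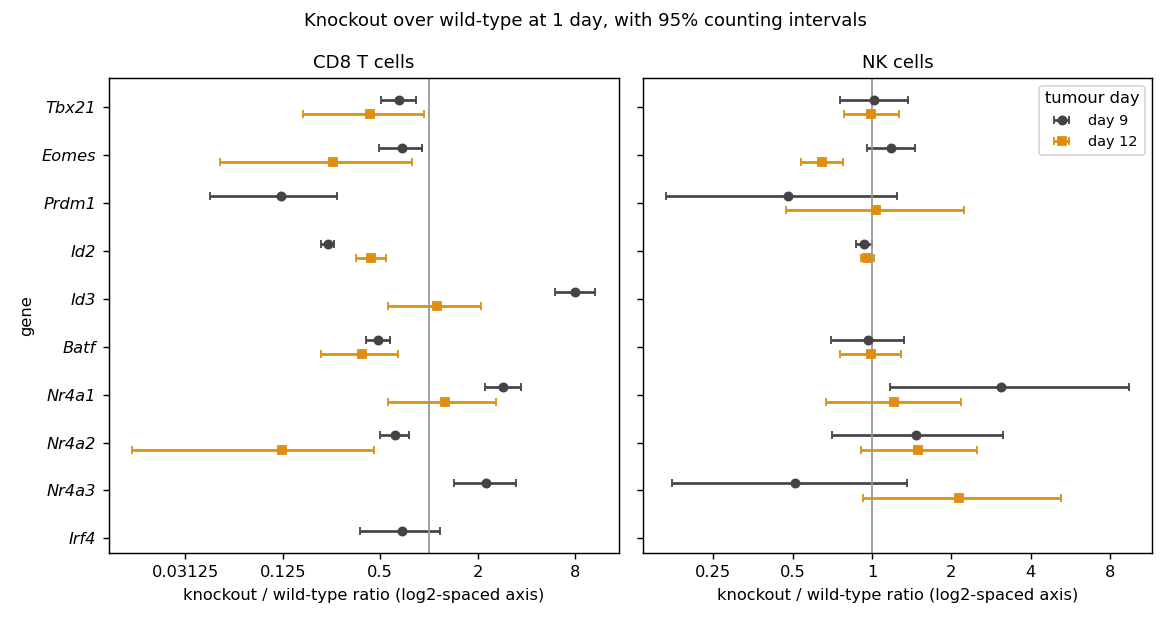
Knockout over wild-type ratio of each member at day 9 and day 12 in CD8 T cells (left) and NK cells (right), on an axis spaced in log2, with exact conditional 95% intervals for counting error. In CD8 T cells Id2 and Batf lie below 1 at both days with intervals that exclude 1, and in NK cells most intervals include 1.

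The test that the design allows asks whether a gene differed by genotype at both days alike, over the 4 libraries (edgeR's quasi-likelihood test with day and genotype as terms, Benjamini-Hochberg adjustment over all genes). In CD8 T cells Id2 fell by 1.53 on the log2 scale in knockout (SE 0.25, adjusted p = 0.0198) and Batf fell by 1.02 (SE 0.20, adjusted p = 0.0318). These 2 of 10 members were lower and 0 higher, beside 2.88% of all genes lower and 2.65% higher. Id3 had a log2 difference of 2.14 (SE 0.57, adjusted p = 0.0765 in edgeR's test) and Nr4a1 of 1.32 (SE 0.33, adjusted p = 0.0637). Differences for the other 6 ran from -1.70 for Prdm1 to 0.73 for Nr4a3, with adjusted p from 0.209 to 0.593 in edgeR's test. The median over the 10 members was -0.65, against 0.02 over all 8139 genes tested. Each genotype and day had 1 pooled library, so the p-values measure no spread between replicates. The 1 residual degree of freedom holds how far the genotype difference departed between the days. The test also borrows spread from other genes (prior degrees of freedom 6.46). Preparation run cannot be told apart from group. Both calls were lost when cells were gated at 2000 UMIs each (Id2 -1.21, edgeR adjusted p = 0.0998; Batf -0.83, adjusted p = 0.104) and when day was left out of the model (Id2 -1.51, adjusted p = 0.0753; Batf -1.03, adjusted p = 0.115), and DESeq2 lost Batf (-1.10, adjusted p = 0.123); over all 10 alternatives the adjusted p ran from 3.3e-11 to 0.0998 for Id2 and from 0.000312 to 0.123 for Batf.

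Without the cycling cells, which formed most of the wild-type day 9 gate by UMIs, 9 members could be tested in CD8 T cells. Id3 rose by 1.16 and Nr4a1 by 1.96 on the log2 scale, and Eomes fell by 0.96, Id2 by 1.67, Batf by 0.93 and Nr4a2 by 1.01 under the same edgeR test. Only members that passed are listed here. The share of all genes that passed in this refit is not given, so these calls are not read as particular to the members.

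In NK cells 0 of 8 members tested passed for genotype in edgeR's test, and 0 had an unadjusted p below 0.05; over all genes 5 of 7962 passed (0.0628%). The log2 differences were -0.07 for Id2 (SE 0.19), -0.03 for Batf (SE 0.18), -0.20 for Eomes (SE 0.21), 0.57 for Nr4a2 (SE 0.34) and 0.75 for Nr4a1 (SE 0.42). The opposite Eomes ratios at the 2 days are averaged in this fit. In non-CD8 T cells 0 of 10 passed in edgeR's test, beside 0.0333% of all genes, and 3 of 10 had an unadjusted p below 0.05, beside 642 of 8999 genes. Eomes was at -0.80 (SE 0.26, adjusted p = 0.603) and Id2 at -0.72 (SE 0.29, adjusted p = 0.679). For day, no member passed in edgeR's test in CD8 T, NK or non-CD8 T cells, and none had an unadjusted p below 0.05. In CD8 T cells Id3 was called higher at day 12 with no low-count filter, and Nr4a2 lower without cells of 5 Lyz2 UMIs and without cycling cells. The shares of all genes called for day were 0.0614% in CD8 T, 1.92% in NK and 0.0333% in non-CD8 T cells. DESeq2 also called 0 members in NK cells and non-CD8 T cells.

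Other genes of these pathways were read as lists in the same edgeR fit of CD8 T cells, and values are log2 differences. Of 28 other T and NK transcription factors, 24 were tested, 5 rose and 1 fell in knockout. Tcf7, Lef1 and Bach2, which maintain naive and stem-like T cells, rose by 2.51, 2.48 and 1.80, and Klf2 and Satb1 by 2.27 and 2.53. Tox, linked to exhaustion, fell by 2.11. Their median was 0.14. None of the 3 E proteins that Id2 and Id3 inhibit (Tcf3, Tcf4, Tcf12) passed, and their median was 0.72. Of 12 immediate early genes tested, 6 rose (Fos by 1.53, Jun by 2.32, Junb by 1.19, Ier2 by 1.05, Btg2 by 1.11, Zfp36 by 1.75), with a median of 1.10. Of 7 known T-bet and Eomes targets tested, 3 fell: Gzmb (granzyme B) by 3.30, Prf1 (perforin) by 1.90 and Ccl5 by 1.44. The median of that list was -1.44. Its members did not all move alike, and the fit averages the 2 days. At day 9 Xcl1 was 215 CPM in wild-type and 1402 CPM in knockout, Ifng 281 and 437 CPM, and Cxcr3 111 and 157 CPM. At day 12 the knockout was the lower for each (354 and 20.6, 1339 and 13.7, 240 and 216 CPM). Il2rb was lower in knockout at both days. In NK cells none of these lists had a member that passed for genotype, with 25, 3, 11 and 8 tested. Naive-like check genes (Tcf7, S1pr1, Klf2, Il7r, Satb1) summed to 164, 1242, 843 and 2242 CPM in CD8 T cells, so the make-up of the gate moved with these lists.

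By Pearson correlation of log2(CPM + 1) over the same 43 pools, among 4718 genes, the nearest genes were Serpina3g and Stx8 for Tbx21 (0.81 and 0.79), Atp8b4 and Dapk2 for Eomes (0.86 and 0.85), and Il10ra and Slc2a1 for Prdm1 (0.67 and 0.64). They were Itgal and Acot7 for Id2 (both 0.83) and Nsg2 and Rps19 for Id3 (0.83 and 0.77). Batf was nearest to Ly6a and Mif4gd (0.78 and 0.76), and Irf4 to Pdcd1, which defines a gate, and Tnfrsf4 (both 0.67). Nr4a2 was nearest to Ifng and Nfatc1 (0.68 and 0.67) and Nr4a3 to Il4i1 and Eno3 (0.65 and 0.64). Among the members, Tbx21 with Id2 (0.62) and Batf with Irf4 (0.55) had the highest positive correlations, and Id2 with Id3 the lowest.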

How the data were processed

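The authors deposited unnormalized UMI counts for each gene and barcode, from Cell Ranger 2.0.2 and mm10 per the submitters' processing notes. Cells were kept with at least 200 genes, at most 10% mitochondrial and at most 5% haemoglobin UMIs, and the highest Scrublet scores were removed at 0.8% per 1000 barcodes (25, 112, 108 and 34 barcodes; Scrublet's own threshold called 3, 5, 1 and 15). T and NK cells were gated on raw UMIs of markers: at least 3 of Cd3d, Cd3e and Cd3g for T cells, at least 2 of Ncr1 and Klrb1c with at most 2 CD3 UMIs for NK cells, and at least 2 of Cd8a and Cd8b1 for CD8 T cells. CD8 subsets were taken in the order cycling (at least 3 UMIs of cell cycle genes), Ccl1/Penk/Nrn1 (at least 3 UMIs), PD-1+ (at least 1 Pdcd1 UMI), naive-like (at least 3 UMIs of a list of naive T cell genes), Gzmk+ and remaining. Raw UMI gates depend on depth, so gating was repeated at 2000 UMIs per cell. Of 2635 T cells 64 had exactly 3 CD3 UMIs, and of 1100 NK cells 29 had 2.

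UMIs were summed per gate and library and scaled to CPM. Ratios within 1 day needed 20 UMIs over the pair and carry exact conditional 95% intervals (scipy 1.17.1). A count of 0 is read against a floor of 3 counts. The fits used edgeR 4.0.16 (quasi-likelihood, TMM, filterByExpr, threshold 0.05) on the 4 sums with day and genotype as terms, with DESeq2 1.42.0 as an alternative. In tests on simulated data, 89%, 77.5% and 86.5% of 200 genes changed 4-fold by genotype were recovered in CD8 T cells (8147 genes), NK cells (7841) and non-CD8 T cells (8975). False calls numbered 6, 12 and 11. Recovery of changes smaller than 4-fold is not given here. All 10 members are named; listed genes are named up to 6 per comparison by lowest adjusted p, and the 2 nearest genes by correlation over pools of at least 20 cells among genes with a mean of at least 20 CPM (those of Nr4a1 are not reported here). The members, lists and gates were chosen with earlier results of these data known.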

Additional observations from a re-analysis of the deposited data

Results flagged for a closer look

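Id2 moved in opposite directions between day 9 and day 12 in the 2 genotypes in the CD8 and non-CD8 T cell gates, with counting intervals on either side of 1. In CD8 T cells the level at day 12 was 0.85 of that at day 9 in wild-type (95% interval 0.795 to 0.908) and 1.58 times it in knockout (1.26 to 1.97). Within naive-like CD8 T cells it was higher at day 12 in both, 2.26 times in wild-type (1.68 to 3.07) and 1.67 times in knockout (1.14 to 2.38), and the make-up of the CD8 gate differed between days. In non-CD8 T cells the ratio was 0.803 in wild-type (0.75 to 0.859) and 1.81 in knockout (1.63 to 1.99), and the make-up of that gate also differed between libraries. Within the knockout libraries NK cells went the other way from both T cell gates, with a ratio of 0.847 (0.792 to 0.905) against 1.58 in CD8 T cells and 1.81 in non-CD8 T cells. Id3 in non-CD8 T cells was 2.46 times higher at day 12 than at day 9 in wild-type (1.69 to 3.59) and 0.498 of the day 9 level in knockout (0.315 to 0.758). Each arm is 1 library, so the differences between these ratios were not tested.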

How the results depend on the processing

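No paired analysis was possible because each group has 1 library, and for the same reason no replicate could be left out. The number of genes edgeR called for genotype in CD8 T cells was 450; it was 749 with RLE normalization, 193 with DESeq2, 995 with no low-count filter, 13 without day in the model, 728 with a mitochondrial limit of 5%, 688 with no doublet removal and 129 with gating at 2000 UMIs. For day in CD8 T cells the 5 calls became 117 (RLE), 21 (DESeq2), 295 (no filter), 0 (without genotype), 99 (mitochondrial limit), 77 (no doublet removal), 101 (without cells of 5 Lyz2 UMIs) and 281 (without cycling cells). For genotype in NK cells the 5 calls became 2 (DESeq2), 29 (no filter), 2 (without day), 21 (no doublet removal), 3 (T gate of 2 CD3 UMIs), 25 (Lyz2), 23 (2000 UMIs) and 13 (without cycling cells); for day the 153 became 12 (DESeq2), 397 (no filter), 433 (no doublet removal), 98 (T gate) and 337 (Lyz2). In non-CD8 T cells the 3 genotype calls became 213 (no filter), 5 (mitochondrial limit) and 5 (2000 UMIs), and the 3 day calls became 0 (RLE), 11 (DESeq2), 340 (no filter), 0 (without genotype), 6 (mitochondrial limit), 8 (no doublet removal), 0 (Lyz2), 11 (2000 UMIs) and 57 (without cycling cells). The causes were not tested.

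Of the members' genotype fold changes under these alternatives, 241 kept direction and side of the threshold, 16 newly passed it, 5 no longer passed it and 11 changed sign. Id3 and Nr4a1 passed for genotype in CD8 T cells under RLE, the mitochondrial limit, no doublet removal, the Lyz2 limit, no filter and without cycling cells; Nr4a2 passed with no filter and without cycling cells, Prdm1 with no filter and Eomes without cycling cells. Signs changed for Irf4 in CD8 T cells (0.33 at 2000 UMIs), Tbx21 in NK cells (-0.0098 with no doublet removal, -0.057 at 2000 UMIs, -0.015 without cycling cells), Batf in NK cells (0.0126 Lyz2, 0.052 without cycling cells), Nr4a1 in non-CD8 T cells (-0.18 Lyz2, -0.32 without cycling cells) and Irf4 in non-CD8 T cells (-0.29 Lyz2, -0.46 at 2000 UMIs, -0.37 without cycling cells). Among the ratios at 1 day, 316 kept within their counting interval, 29 moved and 1 changed sign. That was Nr4a2 in CD8 T cells at day 9 (1.12 with equal weight of naive-like, PD-1+ and remaining cells). The count of 18 member ratios past 1.5-fold ranged from 13 to 21. The alternatives that leave out the cell with the most UMIs, or a library from the subset order, were chosen after seeing the data. The leading subset held for 4 of 10 members at 2000 UMIs for 4 by thinned share, and for 5 without knockout day 9 (9 to 10 without each other library). The 57 CD8 T cells of knockout day 12 limit every CD8 comparison at that day.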
